A study of Mus musculus with 6 samples.

Results

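RNase MRP and RNase P are nuclear ribonucleoproteins that each hold 1 RNA. The RNA of RNase MRP is Rmrp and that of RNase P is Rpph1, and every row of the deposited non-coding RNA count table whose transcript belongs to either gene in the GENCODE mouse annotation (release 21) was taken. This gave 3 rows of 5880. Rmrp has a long row, annotated as a lincRNA (ENSMUST00000226420.1), and a short row, annotated as a ribozyme (ENSMUST00000157463.1), and Rpph1 has 1 row, annotated as a ribozyme (ENSMUST00000175096.1). All 3 had enough counts to be tested.

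Small RNA was sequenced from exosomes, the small vesicles that cells release into their medium, of mouse P19 embryonal carcinoma cells. The UD-P19 group (replicates 1 to 3) was exosomes of undifferentiated cells that were grown in alpha-MEM with fetal bovine serum, then washed and moved to alpha-MEM with N2 supplement for the last day before collection. The P19N group (replicates 4 to 6) was exosomes of neurons made from the same cells in alpha-MEM and serum with retinoic acid and then kept in neurobasal medium with glutamine, B27 and N2 supplements, collected at 8, 10 and 12 days in that order. The study's methods add that P19N cultures were exposed to 5-fluorouridine with uridine to stop dividing cells and name no such step for UD-P19, while the sample labels state that no drug was used. The medium, retinoic acid and this exposure differed with the cell state, so their parts in any difference cannot be told apart, and each P19N age was 1 library, so the spread within P19N holds age as well as replicate error. The methods place a further exposure after the collection at 8 days, so the 8-day library would have had fewer exposures than the later ones. Medium was collected at 8 days and on alternate days after it, and whether the P19N libraries came from the same cultures is not stated. In exosomal RNA, packaging, release and the level in the parent cell cannot be told apart either.

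Counts per library ranged from 454499 to 762575 in UD-P19 and from 588646 to 887460 in P19N. The make-up of the libraries moved with the group. Gm42418, which is annotated as a lincRNA, took a mean of 58.4% of each UD-P19 library (SD 8.54, n = 3) and 17.03% of each P19N library (SD 0.986, n = 3). The snRNAs took 6.07% (SD 1.31) and 50.5% (SD 2.26). What RNA the Gm42418 reads came from was not tested. Their part in the results on Rmrp and Rpph1 was not tested beyond the scalings and denominators given with those results. Of 11 hairpins that mark undifferentiated cells, 4 were in the table, with 3, 13 and 0 counts in the UD-P19 libraries and 0, 0 and 2 in the P19N libraries. Of the neuronal Mir9 and Mir124 hairpins, 4 were in the table, with 0 counts in every UD-P19 library and 4, 1 and 3 in the P19N libraries. With the long RNAs Meg3, Rian and Miat added, the neuronal list of 7 genes had 9, 168 and 21 counts in UD-P19 and 100, 92 and 61 in P19N, so UD-P19 replicate 2 held more than any P19N library. The hairpin markers were near 0 in both groups, and the check of the labels rests on these few counts.

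RNase P removes the leader from the start of precursor tRNAs, and RNase MRP cuts the ribosomal RNA precursor ahead of a small rRNA of the large ribosomal subunit. The enzymes share most of their protein subunits, and their RNAs fold alike around a related core. Both RNAs are made by RNA polymerase III from promoters that lie ahead of the gene. Loss-of-function variants of human RMRP cause cartilage-hair hypoplasia. RNase P also cuts the nuclear long RNAs Malat1 and Neat1 at their 3′ ends.

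The Rmrp rows are a long and a short model of the same RNA. On GRCm38, the long row is a single exon of 281 bases on the minus strand at chr4:43492783-43493063, and the short row is a single exon of 271 bases at chr4:43492788-43493058. The longer model holds the whole shorter one and adds 5 bases at either end. RefSeq places Rmrp at chr4:43492785-43493059, which is 275 bases and reaches 1 base ahead of the short model and 3 bases past it. On the other strand, an exon of a Ccdc107 transcript covers 124 bases of the models, and whether the counting used strand is not given in the sources used here. The whole long sequence is shown, from the GENCODE transcripts, because the assignment of reads to one row or the other turns on its outer bases, and the capitals mark the 10 bases that the short model lacks.
Rmrp, long: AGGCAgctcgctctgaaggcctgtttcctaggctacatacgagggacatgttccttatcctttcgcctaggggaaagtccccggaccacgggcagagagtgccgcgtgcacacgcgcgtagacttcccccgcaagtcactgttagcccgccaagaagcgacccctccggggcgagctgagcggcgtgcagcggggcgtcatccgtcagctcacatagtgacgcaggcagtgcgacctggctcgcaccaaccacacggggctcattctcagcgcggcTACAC

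Rpph1 is a single exon of 319 bases on the minus strand at chr14:50807449-50807767. On the same strand, 233 of its bases lie in a UTR exon of the protein-coding gene Ccnb1ip1, so reads of that mRNA over these bases cannot be told apart from Rpph1 reads. Mouse also carries RNase P RNA-like genes, Rprl1, Rprl2 and Rprl3, whose sequences resemble Rpph1. Rprl3 (290 bases, minus strand, chr8:3803069-3803358) matched bases 1 to 257 of Rpph1 with its bases 1 to 236, where 222 of 236 aligned bases (94.1%) were identical. Rpph1 holds 2 exact copies of a 21-base repeat of which Rprl3 holds no exact copy, and diverged copies were not searched for. The alignment stopped short of the 3′ ends. The first 35 and last 51 bases, those of Rpph1 outside the UTR exon and the same lengths of Rprl3, show how alike the 5′ ends and how unlike the 3′ ends of the models are. RefSeq gives Rprl3 a length of 235 bases, shorter than the 290-base model, so the printed end of the model may lie outside the RefSeq gene. In the first stretches, capitals mark the 2 bases that differ.
Rpph1 start: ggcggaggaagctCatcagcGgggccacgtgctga
Rprl3 start: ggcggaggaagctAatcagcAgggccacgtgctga
Rpph1 end: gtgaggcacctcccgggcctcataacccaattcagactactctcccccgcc
Rprl3 end: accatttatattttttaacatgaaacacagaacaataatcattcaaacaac
Rprl2 (290 bases, plus strand, chr3:22251374-22251663) was 92.1% identical to Rprl3 and had the same last 56 bases. The best alignment of Rmrp with Rpph1 was 9 bases long.

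Rmrp, the RNA of RNase MRP, was enriched in P19N exosomes. The long row had 2920, 3573 and 2796 counts in UD-P19 replicates 1 to 3 and 15992, 12520 and 13159 counts in P19N replicates 4 to 6. Its levels, as CPM (counts scaled to a library of 1000000, with TMM factors that allow for differences in make-up), were 7152, 4223 and 4615 CPM in UD-P19 and 18793, 16517 and 18312 CPM in P19N. Every P19N library lay above every UD-P19 library, as was so for 25.2% of tested transcripts. The P19N libraries of 8, 10 and 12 days lay close to each other. The group means were 5330 ± 1590 CPM (SD, n = 3) and 17874 ± 1199 CPM (SD, n = 3), a log2 fold change of 1.75 (SE 0.319, adjusted p = 0.000991, edgeR quasi-likelihood test with Benjamini-Hochberg adjustment over the 1286 transcripts tested), or 3.35-fold. Of the 3 rows only the long one had an adjusted p of 0.05 or less, a call made for 24.0% of all tested transcripts (193 higher and 116 lower). With DESeq2 size factors that split was 178 higher and 189 lower, and the median log2 fold change over all tested transcripts moved from 0.21 to 0.05, and to 0.34 with total counts only. Relative to that median, the long row stood at 1.53 in the reported fit, at 1.53 with DESeq2 size factors and at 1.57 with total counts only. It was called in each of 18 other settings, with log2 fold changes from 1.43 to 2.02.

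The short row held few of the reads. It had 68, 67 and 60 counts in UD-P19 and 227, 180 and 198 counts in P19N. Its levels were 115 ± 45.8 CPM (SD, n = 3) and 260 ± 19.9 CPM (SD, n = 3). All P19N levels lay above all UD-P19 levels, as they did for 25.2% of tested transcripts. As a share of the counts without Gm42418, the short row was 0.0375%, 0.0187% and 0.0231% in UD-P19 and 0.0307%, 0.0283% and 0.0411% in P19N, which overlap, and the difference of the means was 0.00695 percentage points in place of 0.0169 with Gm42418 in the total. The log2 fold change of 1.19 (SE 0.435) did not pass the test in edgeR (adjusted p = 0.0585), and it passed in 8 of 16 other settings, while its direction did not change in any of the 16. No count of the short row was unique, where unique, a column the authors deposited without a definition, was read as reads assigned to 1 transcript only.

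The split of Rmrp reads between the models was measured from the unique counts. The long row had 2847, 3497 and 2727 unique counts in UD-P19 and 15764, 12323 and 12977 in P19N. These were 95.6% ± 0.411 (SD, n = 3) of all Rmrp counts in UD-P19 and 97.1% ± 0.0851 (SD, n = 3) in P19N, with every P19N library above every UD-P19 library. The difference gave p = 0.1 in an exact permutation test, two-sided, and 3 against 3 libraries allow no smaller p. In all, 7 shares and ratios were tested this way, and each p of 0.1 became 0.117 with Benjamini-Hochberg adjustment over the 7 exact permutation tests. Under that reading, almost every Rmrp read reached into the outer bases printed in capitals, while 141, 143 and 129 counts in UD-P19 and 455, 377 and 380 in P19N lay within the part that both models hold. Of these shared counts, 47.2% ± 0.908 (SD, n = 3) in UD-P19 and 49.9% ± 2.18 (SD, n = 3) in P19N stood under the short row. The long row's part of them was 73, 76 and 69 counts in UD-P19 and 228, 197 and 182 in P19N, which in no library equalled the short row's count, as it would if each shared read had been counted in full at both rows. How shared reads were divided is not given in the sources used here. The sum of the rows, 3161 ± 420 counts in UD-P19 and 14092 ± 1871 in P19N (SD, n = 3 each), had a log2 fold change of 1.74 (edgeR adjusted p = 0.00104).

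**Figure D1:**
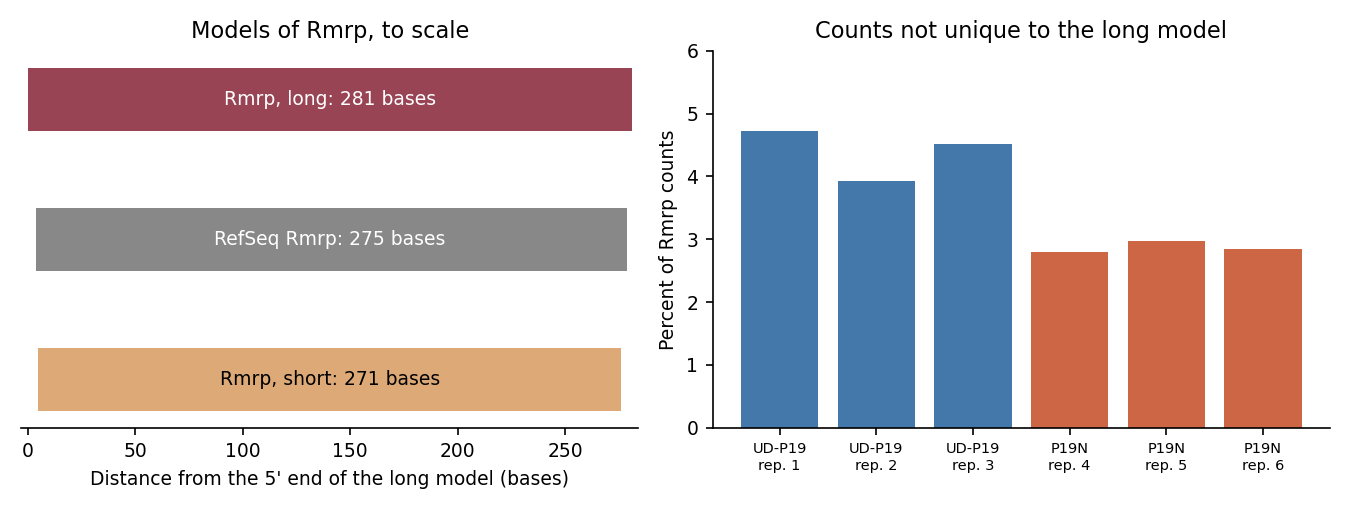
Left, the annotated models of Rmrp as bars drawn to scale against the distance in bases from the 5′ end of the long model. Right, the percent of the counts of both Rmrp rows that were not unique to the long row (y axis) in each UD-P19 library (blue) and P19N library (orange). The 281-base model overhangs the 271-base model by 5 bases at each end, and all 3 P19N bars are lower than all 3 UD-P19 bars.

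Restricted to unique counts, the enrichment of the long Rmrp row was of similar size. The log2 fold change was 1.90 (SE 0.266, edgeR adjusted p = 0.000666 over 510 transcripts), in a fit where 24.9% of transcripts were called. Exact counts, an undefined column read as reads without a mismatch, were 78.3% ± 4.92 (SD, n = 3) of the long row's counts in UD-P19 and 82.3% ± 0.0573 (SD, n = 3) in P19N. Across all rows, exact counts were 53.9% ± 8.55 and 61.6% ± 3.01 of the counts. With exact counts alone the log2 fold change of the long row was 1.73 (edgeR adjusted p = 0.00161).

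Rmrp was a small part of the whole libraries and a larger one in P19N. The long row was 0.642%, 0.507% and 0.367% of the counts in UD-P19 and 1.80%, 1.65% and 2.24% in P19N. Every P19N share was above every UD-P19 share (p = 0.1, two-sided exact permutation test). In TMM-scaled levels, 25.2% of tested transcripts had that order. In every library it was the lincRNA row with the 2nd highest count, after Gm42418, and among lincRNA counts other than Gm42418 it was 36.4% ± 8.10 (SD, n = 3) in UD-P19 and 63.5% ± 1.56 (SD, n = 3) in P19N. Its rank among all rows was 4, 52 and 6 in UD-P19 and 20, 21 and 6 in P19N, which overlap. The mean share of the long row in all counts was 0.505% in UD-P19 and 1.89% in P19N, a difference of 1.39 percentage points. With the Gm42418 counts left out of the total, the means were 1.23% and 2.29%, a difference of 1.06. With the snRNA counts left out, the means were 0.539% and 3.82%, a difference of 3.28. With either left out, every P19N share was still above every UD-P19 share.

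Rpph1, the RNA of RNase P, had a higher mean in P19N but did not pass the test. Rpph1 had 289, 106 and 250 counts in UD-P19 and 934, 752 and 463 in P19N. Its scaled levels were 708, 125 and 413 CPM in UD-P19 and 1098, 992 and 644 CPM in P19N. UD-P19 replicate 2 was the lowest of the 6, the P19N library of 12 days was the lowest of its group, and the groups overlapped, since UD-P19 replicate 1 lay above it. The means were 415 ± 291 CPM and 911 ± 237 CPM (SD, n = 3 each), with a log2 fold change of 1.14 (SE 0.511, edgeR adjusted p = 0.110). Without UD-P19 replicate 1 the row was called, with a log2 fold change of 1.76 (edgeR adjusted p = 0.0239), and without UD-P19 replicate 2 it was 0.71 (adjusted p = 0.0898). As a share of all counts, Rpph1 was 0.0636%, 0.0150% and 0.0328% in UD-P19 and 0.105%, 0.0989% and 0.0787% in P19N, with the P19N shares above all UD-P19 shares (p = 0.1, two-sided exact permutation test). In TMM-scaled levels, 25.2% of tested transcripts had that order. For the shares of Rpph1, the order did not hold without Gm42418 in the total. With the Gm42418 counts left out, the shares were 0.159%, 0.0295% and 0.0962% in UD-P19 and 0.126%, 0.118% and 0.0961% in P19N. The groups then overlapped, UD-P19 replicate 1 was the highest of the 6 libraries, and the difference of the means was 0.0185 percentage points in place of 0.0571. With the snRNA counts left out instead, the P19N shares were above all UD-P19 shares and the difference was 0.152. For the shares of all counts, the 95% Clopper-Pearson interval, which covers counting error only, ran from 0.0123% to 0.0182% in UD-P19 replicate 2 and from 0.0565% to 0.0714% in UD-P19 replicate 1.

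**Figure D2:**
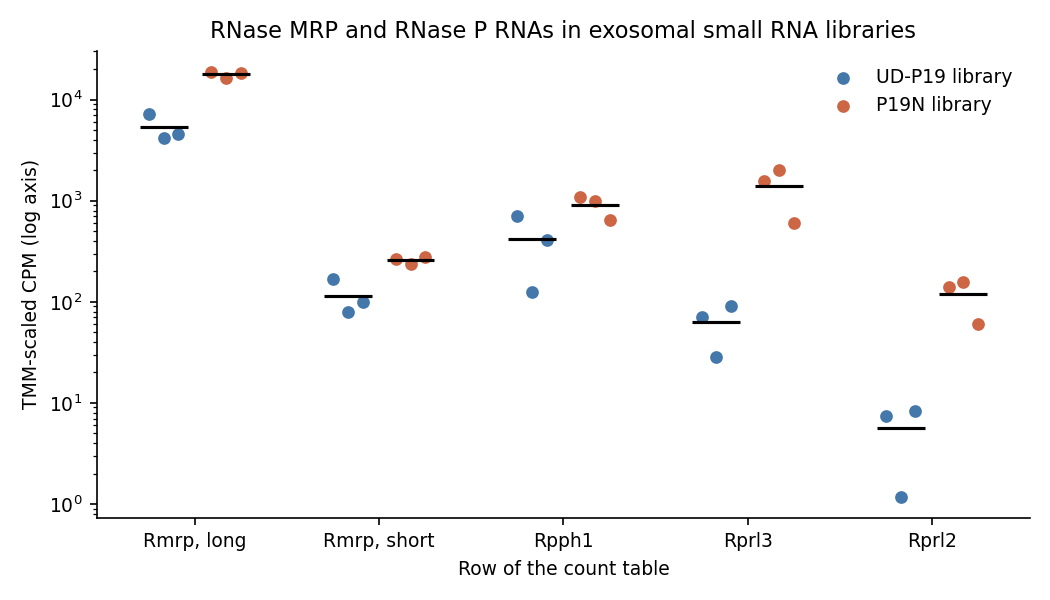
Levels of the 3 rows of Rmrp and Rpph1 and of the related Rprl3 and Rprl2 in each library, as TMM-scaled CPM on a log axis, with the rows on the x axis. Points are libraries (blue UD-P19, orange P19N) and black lines are group means. The long Rmrp row ranges from 4223 to 7152 CPM in UD-P19 and from 16517 to 18793 CPM in P19N, while the groups of Rpph1 overlap.

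In unique counts Rpph1 did not pass the test either. Rpph1 had 279, 102 and 238 unique counts in UD-P19 and 782, 596 and 412 in P19N, with a log2 fold change of 1.18 (SE 0.454, edgeR adjusted p = 0.0801). The unique share of its counts was 96.0% ± 0.701 (SD, n = 3) in UD-P19 and 84.0% ± 4.87 (SD, n = 3) in P19N, with all P19N shares below all UD-P19 shares (p = 0.1, two-sided exact permutation test). The counts that were not unique numbered 10, 4 and 12 in UD-P19 and 152, 156 and 51 in P19N, and those of Rprl3 were almost the same, at 6, 4 and 14 and at 156, 156 and 43. Exact counts were 57.3% ± 9.22 (SD, n = 3) of the Rpph1 counts in UD-P19 and 52.1% ± 3.05 (SD, n = 3) in P19N.

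The RNase P RNA-like rows Rprl3 and Rprl2 were called higher in P19N. Rprl3 had 29, 24 and 55 counts in UD-P19 and 1348, 1515 and 436 in P19N. Its levels were 63.4 ± 31.9 CPM and 1396 ± 715 CPM (SD, n = 3 each), with a log2 fold change of 4.47 (SE 0.568, edgeR adjusted p = 2.73e-05). Its unique counts were 23, 20 and 41 in UD-P19 and 1192, 1359 and 393 in P19N, or 79.1% ± 4.40 and 89.4% ± 0.889 of its counts (SD, n = 3 each). Almost none of it was exact, since only 2, 1 and 2 counts in UD-P19 and 3, 8 and 0 in P19N stood in the exact column, or 0.250% ± 0.265 (SD, n = 3) of its P19N counts. With exact counts alone, 16 of its 3407 counts, Rprl3 had a log2 fold change of 0.64 (edgeR adjusted p = 0.645) and was no longer called. Rprl3 was called in 16 of 17 other settings. With unique counts its log2 fold change was 4.86 (edgeR adjusted p = 0.000139). Under the reading given above, its reads differed from the annotated sequence, and the locus they came from was not determined here.

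Rprl2, also called higher, stood at a lower level. It had 3, 1 and 5 counts in UD-P19 and 118, 120 and 43 in P19N, with a log2 fold change of 4.48 (SE 0.705, edgeR adjusted p = 0.000288). Only 7 of its 290 counts were unique and 0 were exact. Rprl1 had 2 counts in its ribozyme row and 3 in its lincRNA row over all 6 libraries, too few to test.

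Within the RNase P-type counts, those of Rpph1 and all Rprl rows, the make-up was unlike in the groups, given here as a description without a test. Rpph1 was 83.8% ± 5.18 (SD, n = 3) of them in UD-P19 and 39.8% ± 8.85 (SD, n = 3) in P19N, and Rprl3 was 15.02% ± 5.22 and 55.3% ± 8.62. Rprl2 was 1.10% ± 0.450 and 4.83% ± 0.242. When Rpph1 and the Rprl rows were summed to 1 value, 322, 131 and 310 counts in UD-P19 became 2401, 2389 and 943 in P19N, with a log2 fold change of 2.34 (edgeR adjusted p = 0.00420). That sum passed the test, but most of its P19N counts were those of the Rprl rows, so it is no measure of Rpph1 alone.

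**Figure D3:**
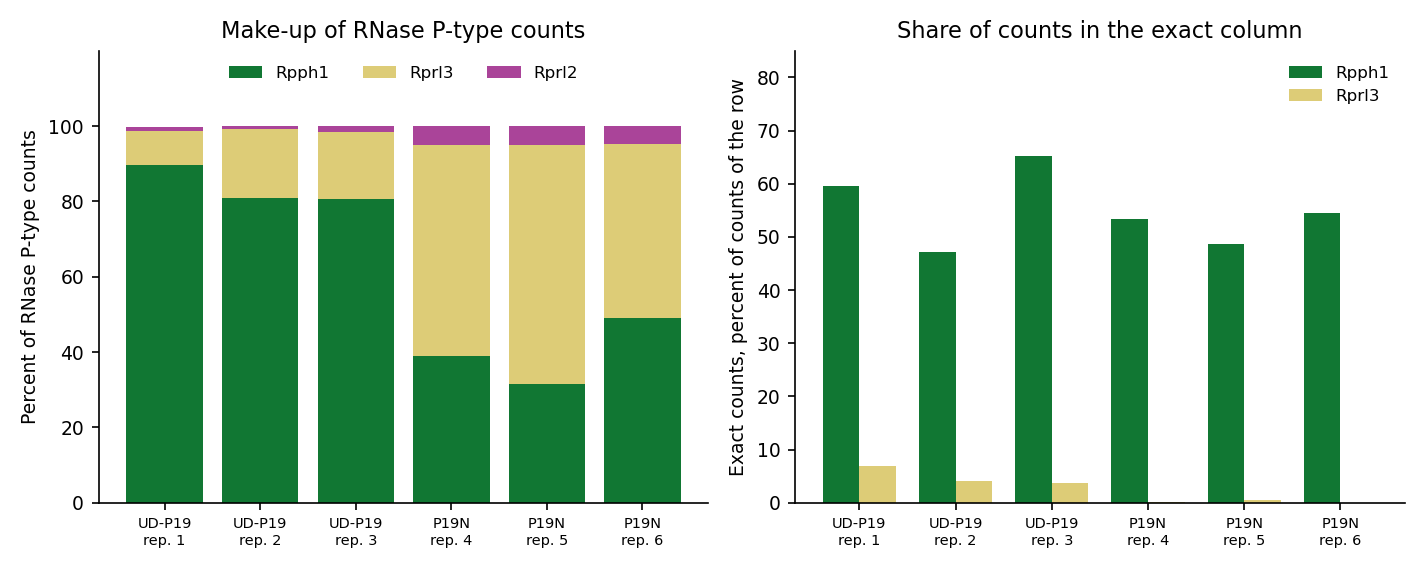
Left, the percent of RNase P-type counts that stood under Rpph1 (green), Rprl3 (yellow) and Rprl2 (purple) in each library. Right, the percent of the counts of Rpph1 and Rprl3 that stood in the exact column. Rpph1 falls from a mean of 83.8% in UD-P19 to 39.8% in P19N, and the exact share of Rprl3 is below that of Rpph1 in all 6 libraries.

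Rmrp counts outnumbered Rpph1 counts in both groups. The ratio of Rmrp counts (both rows) to Rpph1 counts was 10.3, 34.3 and 11.4 in UD-P19 and 17.4, 16.9 and 28.8 in P19N. Per length of the models, the ratio was 21.2 ± 15.4 in UD-P19 and 23.9 ± 7.69 in P19N (SD, n = 3 each). On the log2 scale the ratio of counts was 4.00 ± 0.961 in UD-P19 and 4.35 ± 0.435 in P19N, a difference of 0.35 that was smaller than the spread of the UD-P19 libraries (p = 0.6, two-sided exact permutation test). This difference rested on single libraries, since it was 0.041 without UD-P19 replicate 1, 0.11 without UD-P19 replicate 3, 0.10 without P19N replicate 6 and 0.91 without UD-P19 replicate 2. With the short Rmrp row alone in place of both rows it was -0.17. The libraries with the highest ratio were UD-P19 replicate 2 and P19N replicate 6, which were also those with the lowest Rpph1 level of their groups. A change in the balance of the RNAs was not detectable with 3 libraries a group. In CPM per kb of model, the long Rmrp row stood at 18968 in UD-P19 and 63608 in P19N, and Rpph1 at 1302 and 2857. Whether counts of either RNA scale with model length was not tested, so these values do not measure the relative amounts of the RNAs.

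Other RNAs that polymerase III makes from an upstream promoter were compared next. Of 5 listed, 4 were in the table and tested, 2 were called higher and 0 lower, with a median log2 fold change of 1.33. Over all tested transcripts 24.0% were called, 193 of 1286 of them higher, and the median was 0.21. The called RNAs were the Y RNAs, small RNAs of Ro ribonucleoproteins, and they were called with each of 4 other scalings as well. Rny1 had 1949, 3473 and 3296 counts in UD-P19 and 12375, 12796 and 11752 in P19N (log2 fold change 1.74, SE 0.303, edgeR adjusted p = 0.000689). Rny3 had 477, 1349 and 881 counts in UD-P19 and 3939, 4016 and 4456 in P19N (log2 fold change 1.93, SE 0.335, edgeR adjusted p = 0.000674). Those not called were Rn7sk, the RNA that holds the elongation factor P-TEFb inactive, at 0.81 (edgeR adjusted p = 0.150), and Rnu6, a row of the U6 spliceosomal RNA, at 0.93 (adjusted p = 0.406) on 59 counts in all. Of the Rnu6 counts 0 were unique, so this row is no measure of all U6 RNA.

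Of the RNAs that these enzymes cleave, 9 rows were in the table and 6 could be tested, of which 2 were called higher, 1 lower and 3 neither, with a median log2 fold change of 1.10, beside 24.0% called and a median of 0.21 over all tested transcripts. The main Malat1 row, a nuclear long RNA, had 94, 241 and 132 counts in UD-P19 and 843, 687 and 313 in P19N (log2 fold change 1.67, SE 0.420, edgeR adjusted p = 0.00866). The other row called higher was a shorter Malat1 model, at 2.49 (edgeR adjusted p = 0.00906), with 0 unique counts of 108. The tested Neat1 row, with 23 counts in all, was at 0.97 (edgeR adjusted p = 0.475). The rRNA n-R5-8s1, whose 5′ end forms after the RNase MRP cut, had 70, 433 and 183 counts in UD-P19 and 57, 33 and 33 in P19N, and fell by 2.65 on the log2 scale (SE 0.497, edgeR adjusted p = 0.00115). No count of the 809 for this rRNA stood in the exact column.

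The other RNAs needed for cleavage of the ribosomal RNA precursor were U3 (Rnu3a and Rnu3b1 to Rnu3b4), U8 (Snord118), U17 (Snora73a and Snora73b) and U14 (Snord14 genes), with 17 rows tested. In the quasi-likelihood fit of edgeR 0 of the 17 were called, beside 24.0% of all tested transcripts, and 1 had an unadjusted p under 0.05, beside 494 of 1286. The edgeR exact test and DESeq2 called 0 and 0 of the 17. Their log2 fold changes ran from -0.56 for Snord14c to 1.18 for Snord14a, with a median of 0.22 beside 0.21 over all tested transcripts. Snord118, the most abundant, had 1313, 2019 and 2595 counts in UD-P19 and 2692, 1645 and 1692 in P19N (log2 fold change -0.36, edgeR adjusted p = 0.454). The U3 rows are near-identical copies with 0 unique counts, so their values are not independent of each other.

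**Figure D4:**
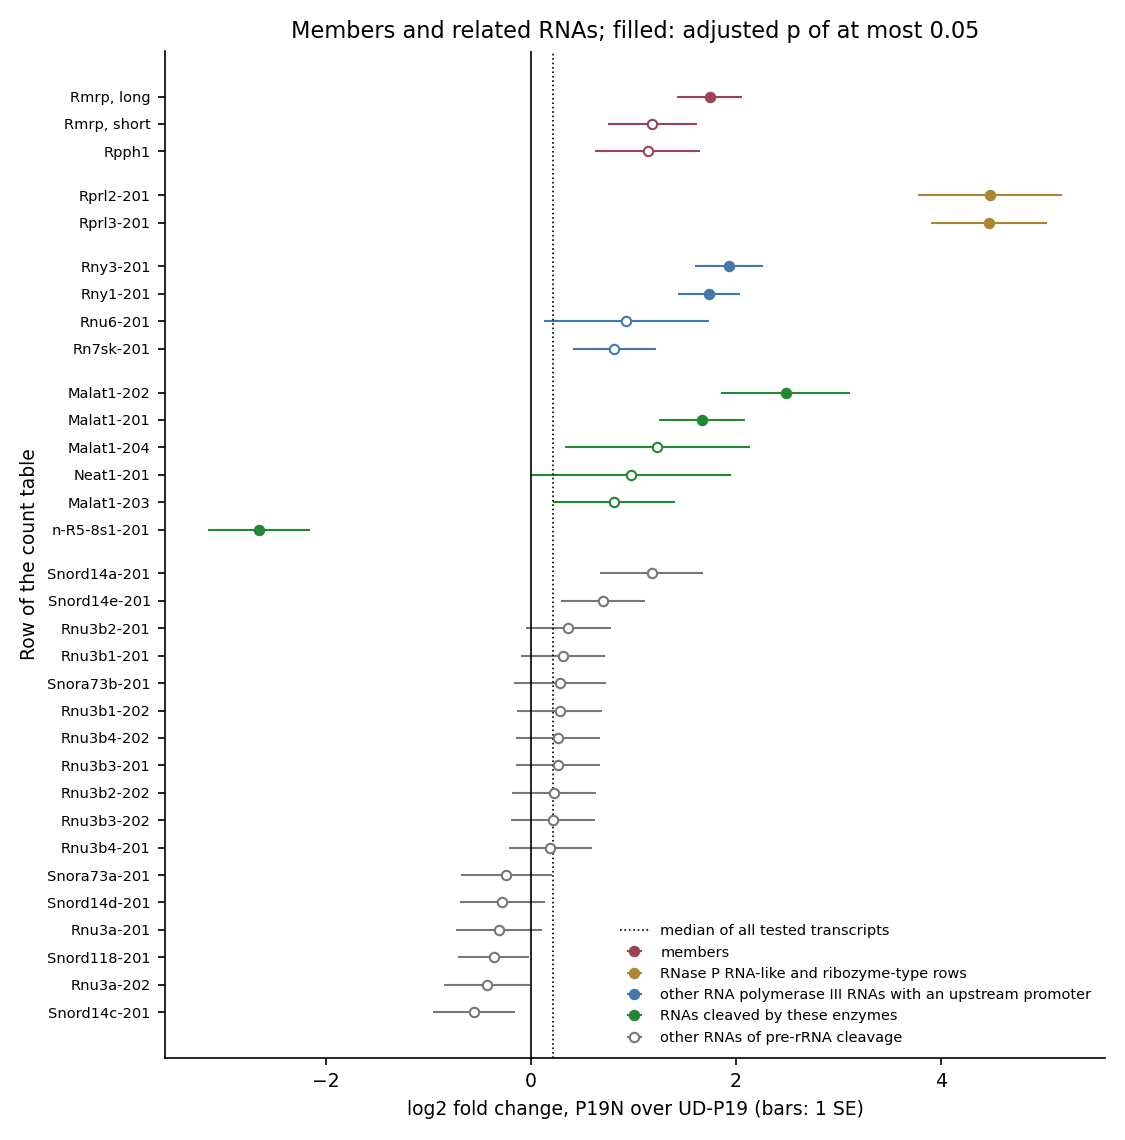
Log2 fold change of P19N over UD-P19 (x axis, with 1 SE) for each tested row of Rmrp, Rpph1 and the related RNAs, coloured by list. Filled points have an edgeR adjusted p of at most 0.05, and the dotted line is the median of all tested transcripts, 0.21. The long Rmrp row at 1.75 stands beside the Y RNAs Rny1 at 1.74 and Rny3 at 1.93, and the 17 rows of pre-rRNA cleavage RNAs lie between -0.56 and 1.18.

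The transcripts whose levels over the 6 libraries were most like those of each RNA were found by the root mean square difference of centred log2 CPM, among 757 transcripts, as a description. Nearest to the long Rmrp row were Mir677 (0.222), Rny1 (0.268), Gm23330 (0.294), the Snhg1 transcript Snhg1-208 (0.315) and Gm22486 (0.317). Of the counts of Mir677, 4 of 441 were unique, Gm23330 had 26 unique counts of 162, and Snhg1-208 had 0 of 323. Nearest to Rpph1 were Gm24525 (0.211), Snora57 (0.302), Gm23262 (0.344), Rnu12 (0.379) and Gm24497 (0.438). Of these, the snRNA rows Gm24525 and Gm24497 had 84 unique counts of 1433 and 10 of 5914, so most of their counts were not unique. The long Rmrp row and Rpph1 were 0.631 apart. Among the 757 transcripts, Rpph1 ranked 111 by nearness to the long Rmrp row, and that row ranked 43 by nearness to Rpph1.

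**Figure D5:**
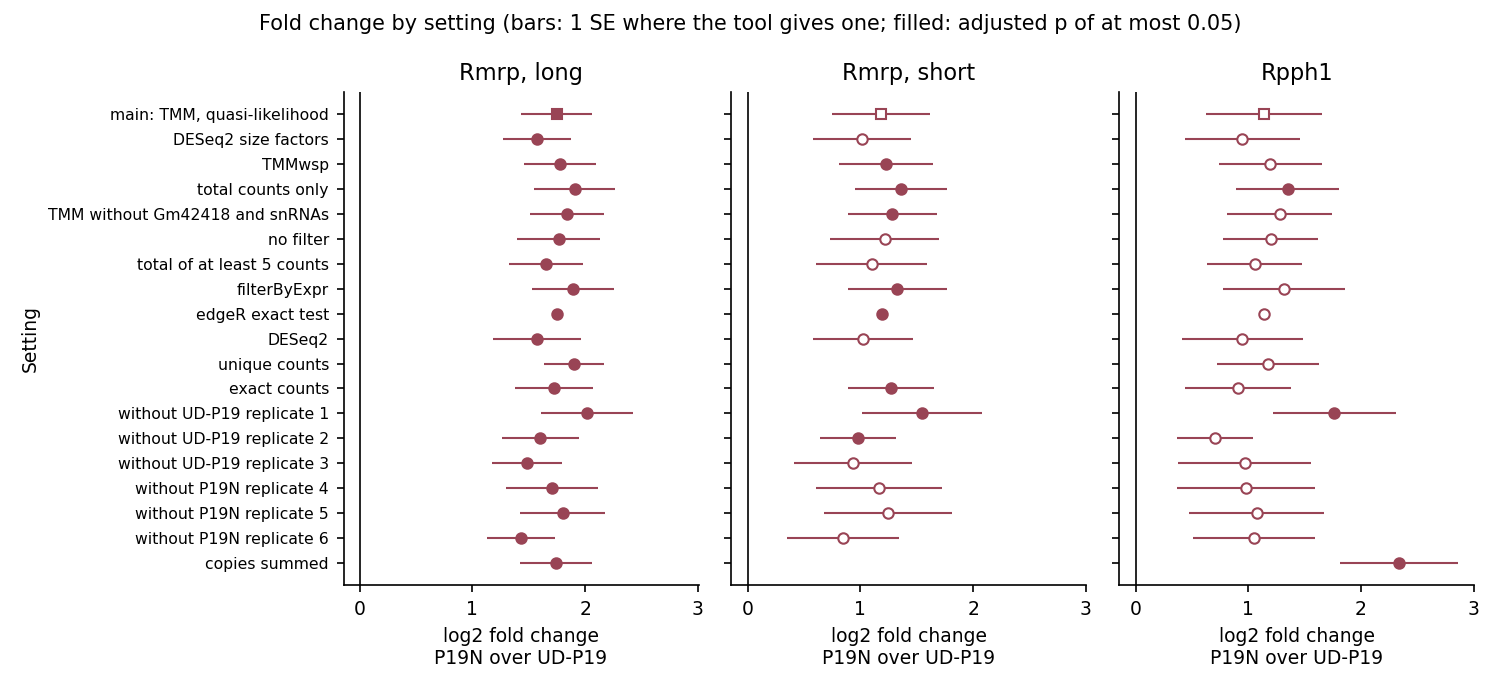
Log2 fold change of P19N over UD-P19 for each row of Rmrp and Rpph1 (1 panel a row, x axis, with 1 SE where the tool gives one) under the reported fit (square) and each other setting (circles, y axis). Filled symbols have an adjusted p of at most 0.05. The long Rmrp row is called in all settings, the short row in 8 of 16 others and Rpph1 in 3 of 18 others, and every value is above 0.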

How the data were processed

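Reads were trimmed, merged in pairs and matched to GRCm38 non-coding transcripts by the authors in CLC Genomics Workbench at default settings, and the authors deposited raw counts per transcript without normalization, beside undefined columns of unique and exact counts. How reads that match several transcripts were assigned is not given in the sources used here. The deposited group means, ratio fold changes and p-values were not used.

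Of 5880 transcripts, 5777 matched GENCODE release 21. The 1286 transcripts whose counts summed to 15 or more entered edgeR 4.0.16 (TMM, quasi-likelihood, both groups only, Benjamini-Hochberg) in R 4.3.3, and the tests were checked on simulated data. SE is the log2 fold change over the square root of F. Shares and ratios were tested with exact two-sided permutation tests (scipy 1.17.1), with Benjamini-Hochberg adjustment over the 7 tests. The precision is limited by 3 libraries a group and by counting error at low counts. The libraries are separate exosome preparations, but those of P19N may come from the same cultures. Alternatives covered scaling, filters, tests (edgeR exact test, DESeq2 1.42.0), unique and exact counts, summed copies, and each library left out. Likeness used log2 CPM with a prior count of 2 in transcripts of mean count at least 10. Rows overlapping the member and repeat copies were left out, and the 5 nearest were named. The text names every row of Rmrp and Rpph1, other ribozyme or Rprl rows, and listed polymerase III, substrate and pre-rRNA cleavage RNAs. Members and lists were chosen with earlier results of these data known.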

Additional observations from a re-analysis of the deposited data

How the results depend on the processing

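The long Rmrp row was called in all 18 other settings (edgeR, and DESeq2 1.42.0 as 1 of them; adjusted p at most 0.00927), and no fold change of the long row, the short row or Rpph1 turned in direction in any setting. With 1 library left out, the log2 fold change ranged from 1.43 to 2.02 for the long Rmrp row, from 0.84 to 1.54 for the short Rmrp row and from 0.71 to 1.76 for Rpph1, and in unique counts from 0.82 to 1.73 for Rpph1. The short Rmrp row, not called in the reported fit, was called with TMMwsp (1.23), total counts only (1.36), TMM without Gm42418 and snRNAs (1.28), filterByExpr (1.33), the edgeR exact test (1.19), exact counts (1.27), and without UD-P19 replicate 1 (1.54) or replicate 2 (0.98). Rpph1 was called with total counts only (1.35), with the Rprl rows summed in (2.34), and without UD-P19 replicate 1 (1.76, and 1.73 in unique counts). The cause was not tested, except that the summed row holds the Rprl counts.

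The number of transcripts called was 309, 127 with unique counts, where fewer transcripts could be tested, and with 1 library left out from 173 to 530, where P19N replicate 5 gave the lowest and UD-P19 replicate 2 the highest number, and leaving out P19N replicate 4 gave 139 higher and 62 lower calls. Higher and lower calls numbered 193 and 116 in the reported fit, 161 and 102 without UD-P19 replicate 1, 330 and 200 without UD-P19 replicate 2, 130 and 157 without UD-P19 replicate 3, 121 and 52 without P19N replicate 5, and 146 and 136 without P19N replicate 6. The difference in share, P19N minus UD-P19, was 1.39 percentage points for the long Rmrp row, 0.0169 for the short Rmrp row and 0.0571 for Rpph1. With the Gm42418 counts left out of the total it was 1.06, 0.00695 and 0.0185, without the snRNA counts 3.28, 0.0442 and 0.152, and in unique counts 4.67 for the long Rmrp row and 0.182 for Rpph1. With 1 library left out it ranged from 1.22 to 1.51, from 0.0138 to 0.0189 and from 0.0461 to 0.0704. The log2 ratio of Rmrp to Rpph1, 0.35 higher in P19N, ranged from 0.041 to 0.91 with 1 library left out and was -0.17 with the short Rmrp row alone. The short Rmrp row has no unique counts, so it has no value there. No paired analysis was possible because the replicate numbers of the groups are not shared.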
